A study of Mus musculus with 12 samples.

Results

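Promoter peaks of protein-coding genes that were on the reproducible peak lists of mouse embryonic fibroblasts (MEFs) and on neither list of mouse embryonic stem cells (mESCs) numbered 1892, out of 91354 accessible regions in the peak set called on BGI data. The members were chosen by 4 deposited lists of reproducible peaks, for each cell type on each sequencing platform. A member had a transcription start site (TSS) of a protein-coding gene within 1 kb of its edges, was not shared by TSSs of genes on opposite strands, and overlapped both MEF lists and neither mESC list by at least 1 bp. They made up 8.94% of the 21155 promoter peaks that were not bidirectional, and they belonged to 1684 genes. For comparison served the 13081 promoter peaks on all 4 lists and the 2699 on the mESC lists only. The assay was Omni-ATAC-seq, in which the Tn5 transposase cuts and tags open DNA. MEFs were sorted as Thy1+ and mESCs as Thy1-/Ssea1+/Epcam+, both of C57/Bl6 background, and each cell type gave 3 libraries from biological replicates. Each of the 6 libraries was split and read by both a DNBSEQ-G400 of BGI and a HiSeqX10 of Illumina, so that the 12 samples formed 4 groups of 3. The embryonic stage of the fibroblasts and the number of mESC lines are not given in the sources used here.

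A promoter is the stretch around a TSS where transcription factors and RNA polymerase assemble, and in an active or poised gene it is depleted of nucleosomes and open to Tn5. Promoters rich in CpG dinucleotides are open in most cell types, whereas CpG-poor promoters tend to open in the cell types that use the gene. Fibroblasts are the connective tissue cells that secrete collagens and other matrix proteins and carry contractile actin fibres. In embryonic stem cells, pluripotency factors such as Oct4 (Pou5f1) and Nanog are active. Many genes also carry several promoters, of which different cell types can use different ones.

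Accessibility is given as CPM, a read count scaled by the total reads in all peaks of that peak set. Where a single value stands for MEFs and a single one for mESCs, each is the mean of 6 samples (3 libraries on both platforms). The reads in peaks numbered from 20085886 to 21831840 in the 6 MEF samples and from 15860985 to 17089560 in the 6 mESC samples. The cell types carried the marks of their labels, with exceptions. All promoter peaks of the 6 mESC markers (Pou5f1, Nanog, Esrrb, Zfp42, Dppa5a and Epcam) were on an mESC list, so that by the rule none was a member. Those of Nanog, Zfp42 and Dppa5a were on no MEF list, but Pou5f1, Esrrb and Epcam each had 1 that was on a MEF list. The highest CPM at a promoter peak of these genes was 5.1 in MEFs and 28.7 in mESCs for Pou5f1. It was 9.88 and 19.99 for Esrrb, and 5.41 and 16.55 for Epcam. Among the fibroblast genes, Col1a1, Col1a2, Col3a1, Fap, S100a4 and Pdgfra each had at least 1 member, although the highest CPM at a promoter peak of Pdgfra was 24.9 in MEFs and 28.4 in mESCs. The promoter peaks of Thy1, the gene of the sorting marker (33.8 CPM in MEFs and 10.6 in mESCs), and of Pdgfrb (45.9 and 9.04) were on lists of both cell types and so were no members. Of the markers of other cells that a culture could hold, endothelial genes had no member (0 of 12), skeletal muscle genes had none (0 of 10), immune genes had 1 of 12 (Csf1r) and neural or glial genes 1 of 10 (Tubb3). Of all protein-coding genes 7.67% had a member, so lists this short can say little about other cells. No promoter peak of Ptprc, Itgam, Cdh5, Tie1, Myf5, Myog or Sox10 was in the peak set, and a promoter peak on a MEF list was present for 3 of the 12 immune, 6 of the 12 endothelial, 1 of the 10 muscle and 7 of the 10 neural genes. Whether other cells add to the Csf1r and Tubb3 signals was not tested.

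The sequences of some members are given as examples. The 10 shown belong to members with the highest MEF accessibility, to those with the largest difference between the cell types, and to the leading matrix, contractile and transcription factor genes. Each is the stretch of the member nearest its centre without annotated UTR sequence, cut to fewer bases than the peak, read 5′ to 3′ on the strand of the gene from GRCm38. Capitals mark, where present on either strand, the letters of an AP-1 site (TGANTCA), a TEAD site (GGAATGT), a RUNX site (TGTGGTT), the letters GGGCGG of a GC box, the CCAAT box and a CArG box, and on the gene's strand a TATA box (TATAAA). The letters CCAAT can lie inside a CArG box, as in Ppm1b.

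The first 4 are those of the highest MEF accessibility for which such sequence remained.
Ppm1b, chr17:84957735-84957935, gene on the plus strand: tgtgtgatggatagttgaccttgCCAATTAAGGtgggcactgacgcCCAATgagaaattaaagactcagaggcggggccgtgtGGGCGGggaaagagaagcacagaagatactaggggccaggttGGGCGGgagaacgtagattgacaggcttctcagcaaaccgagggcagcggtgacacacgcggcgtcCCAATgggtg
Rbx1, chr15:81465996-81466196, gene on the plus strand: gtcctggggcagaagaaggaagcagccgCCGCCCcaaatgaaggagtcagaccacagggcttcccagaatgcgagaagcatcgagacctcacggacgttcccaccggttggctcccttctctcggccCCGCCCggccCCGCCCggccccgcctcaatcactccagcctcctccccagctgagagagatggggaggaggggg
Mrtfb, chr16:13358037-13358237, gene on the plus strand: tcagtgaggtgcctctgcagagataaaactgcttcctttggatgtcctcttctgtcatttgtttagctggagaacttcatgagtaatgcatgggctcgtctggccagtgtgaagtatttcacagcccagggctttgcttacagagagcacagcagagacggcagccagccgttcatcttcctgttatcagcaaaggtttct
Polr2a, chr11:69758659-69758859, gene on the minus strand: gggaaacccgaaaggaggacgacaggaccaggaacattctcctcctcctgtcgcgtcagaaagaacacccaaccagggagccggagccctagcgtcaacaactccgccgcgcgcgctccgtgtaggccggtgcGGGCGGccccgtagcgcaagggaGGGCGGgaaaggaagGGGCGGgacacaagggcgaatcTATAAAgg

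The next 3 had a very low signal in mESCs.
4933402D24Rik, chr1:63768187-63768387, gene on the minus strand: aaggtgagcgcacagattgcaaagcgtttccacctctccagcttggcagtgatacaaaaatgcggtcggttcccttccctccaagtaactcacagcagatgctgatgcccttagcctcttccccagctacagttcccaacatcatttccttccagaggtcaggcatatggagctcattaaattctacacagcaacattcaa
4933405O20Rik, chr7:50598096-50598296, gene on the plus strand: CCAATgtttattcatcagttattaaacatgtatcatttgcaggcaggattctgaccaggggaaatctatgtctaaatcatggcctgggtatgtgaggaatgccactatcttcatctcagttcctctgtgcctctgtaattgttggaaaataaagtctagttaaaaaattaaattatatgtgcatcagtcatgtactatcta
Plce1, chr19:38583167-38583367, gene on the plus strand: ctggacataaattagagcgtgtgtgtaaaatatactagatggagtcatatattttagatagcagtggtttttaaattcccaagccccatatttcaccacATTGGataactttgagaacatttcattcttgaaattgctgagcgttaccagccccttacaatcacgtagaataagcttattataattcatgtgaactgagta

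The last 3 lead their gene groups in MEFs.
Col1a1, chr11:94936023-94936223, gene on the plus strand: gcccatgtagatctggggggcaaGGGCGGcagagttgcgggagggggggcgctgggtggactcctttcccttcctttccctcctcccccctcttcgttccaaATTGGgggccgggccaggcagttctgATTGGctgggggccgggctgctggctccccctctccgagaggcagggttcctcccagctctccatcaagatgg
Acta2, chr19:34255158-34255289, gene on the minus strand: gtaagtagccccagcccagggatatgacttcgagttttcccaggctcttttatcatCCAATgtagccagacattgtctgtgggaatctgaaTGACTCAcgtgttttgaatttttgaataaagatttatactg
Twist2, chr1:91801627-91801827, gene on the plus strand: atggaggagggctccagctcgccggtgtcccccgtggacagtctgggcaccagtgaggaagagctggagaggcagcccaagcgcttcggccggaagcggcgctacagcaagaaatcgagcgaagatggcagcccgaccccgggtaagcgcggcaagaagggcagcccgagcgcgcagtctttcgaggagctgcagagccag

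The windows of Ppm1b, Rbx1, Polr2a and Col1a1 hold a GC box, and those of Mrtfb, Twist2, Acta2, 4933402D24Rik, 4933405O20Rik and Plce1 hold none. These windows were not matched in position. Counted from the nearest TSS, their middles lay from −994 bp (4933405O20Rik) to 980 bp (4933402D24Rik), with Acta2 at 367 bp and Twist2 at 257 bp.

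Accessibility of the members had a median of 9.76 CPM in MEFs and 3.98 CPM in mESCs, each member taken as the mean of 6 samples. Because the lists of both cell types chose the members, the MEF to mESC difference is a description and carries no test. The fitted log2 difference of MEF over mESC on BGI (edgeR) had a median of 1.46 and an interquartile range of 0.83 to 2.44, and the same fit on the Illumina columns gave a median of 1.43. Across all peaks, 43.2% were called lower in mESCs on BGI (adjusted p under 0.05), and 1740 of the 1892 members (92.0%) were. The count of members follows from how they were chosen and nothing is read from it.

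The name "open only in MEFs" held for the lists and not for every member's reads. In 318 members (16.8%) the highest mESC sample reached or passed the lowest MEF sample, and the fitted difference went towards mESCs in 44 members. The highest mESC sample did so in 9543 (73%) of the 13081 promoter peaks on every list. The lists of both cell types chose the members, so how much of this contrast comes from that choice was not tested. At the loose threshold of the deposited calls, MACS2 had placed a summit in all 6 mESC samples within 821 members (43.4%) and in none within 319 (16.9%). A summit with a −log10 p of at least 10 in at least 1 mESC sample was present in 1194 members (63.1%), leaving 698 without. The mean mESC signal was under 1 CPM in 219 members (11.6%). The set is therefore named here by its rule, as promoter peaks on the MEF lists only.

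**Figure D1:**
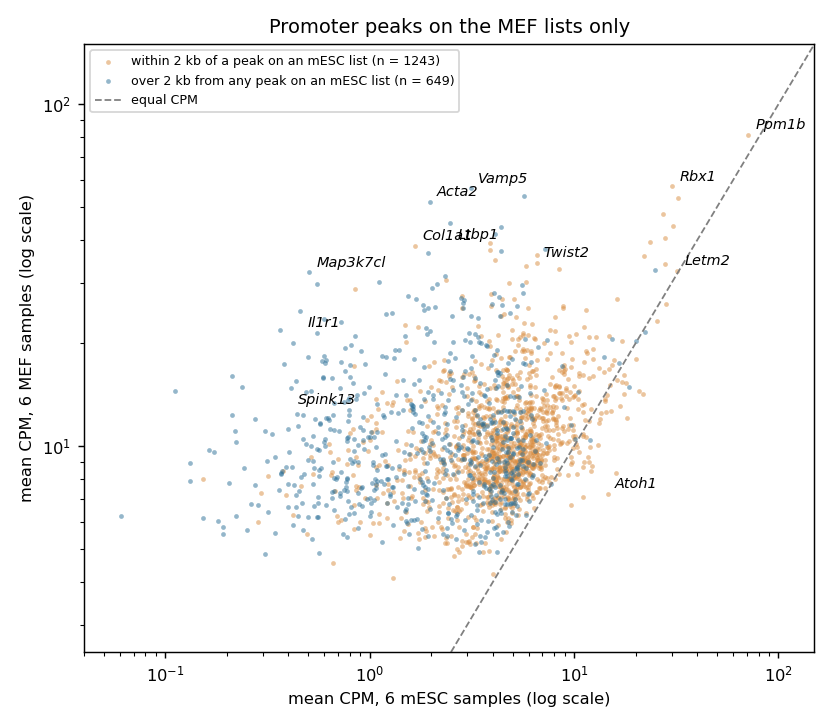
Mean CPM of each of the 1892 members over the 6 mESC samples (x axis, log scale) and the 6 MEF samples (y axis, log scale), coloured by the distance to the nearest peak of an mESC list. Acta2 and Map3k7cl lie far above the dashed line of equal CPM, Ppm1b and Letm2 lie close to it and Atoh1 lies below it.

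Leading genes of the matrix, contractile, TGF-beta and cytokine lists are given here. Acta2, the smooth muscle actin of contractile fibres, had 57.1, 56.6 and 52.2 CPM in the MEF libraries 1, 2 and 4 on BGI and 50.5, 48.3 and 46.4 on Illumina. In the mESC libraries 1, 3 and 5 its values were 2.46, 1.89 and 2.61 CPM on BGI and 1.74, 1.58 and 1.54 on Illumina. Every MEF sample lay far above every mESC sample, and the fitted log2 difference was 4.64 ± 0.14 (SE, n = 3 against 3) on BGI and 4.95 ± 0.13 on Illumina. This member (chr19:34255158-34255659) is centred 181 bp downstream of the nearest annotated TSS in a UTR exon, and no promoter peak of Acta2 was on an mESC list.

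Col1a1, a chain of type I collagen, had 40.1, 32.6 and 42.6 CPM in MEFs on BGI and 39.2, 34.3 and 42.5 on Illumina. Its mESC values were 1.45, 2.01 and 1.37 CPM on BGI and 0.93, 2.17 and 2.09 on Illumina. The groups did not overlap on either platform. The peak (chr11:94935984-94936485) is centred 10 bp downstream of the TSS, and another promoter peak of the gene, 918 bp away, was on an mESC list.

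Ltbp1, which binds latent TGF-beta in the matrix, had 50.7, 50.5 and 42.5 CPM in MEFs on BGI and 44.8, 41.7 and 39.6 on Illumina, against 2.84, 2.07 and 2.30 CPM and 2.04, 2.69 and 2.95 CPM in mESCs. All MEF samples were high and all mESC samples low. The member (chr17:75178325-75178826) lies in an intron, 234 bp upstream of an internal TSS, and the promoter peak of Ltbp1 that was on an mESC list lay 172194 bp away.

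Il1r1, the receptor of interleukin 1, had 27.9, 26.3 and 27.5 CPM in MEFs on BGI and 22.5, 20.8 and 24.2 on Illumina. In mESCs it had 0.76, 0.65 and 0.31 CPM on BGI and 0.43, 0.35 and 0.25 on Illumina. No mESC sample had a MACS2 summit in it, and its fitted log2 difference of 5.62 ± 0.21 (SE, n = 3 against 3) on BGI was the largest among the cytokine genes of the list used here.

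**Figure D2:**
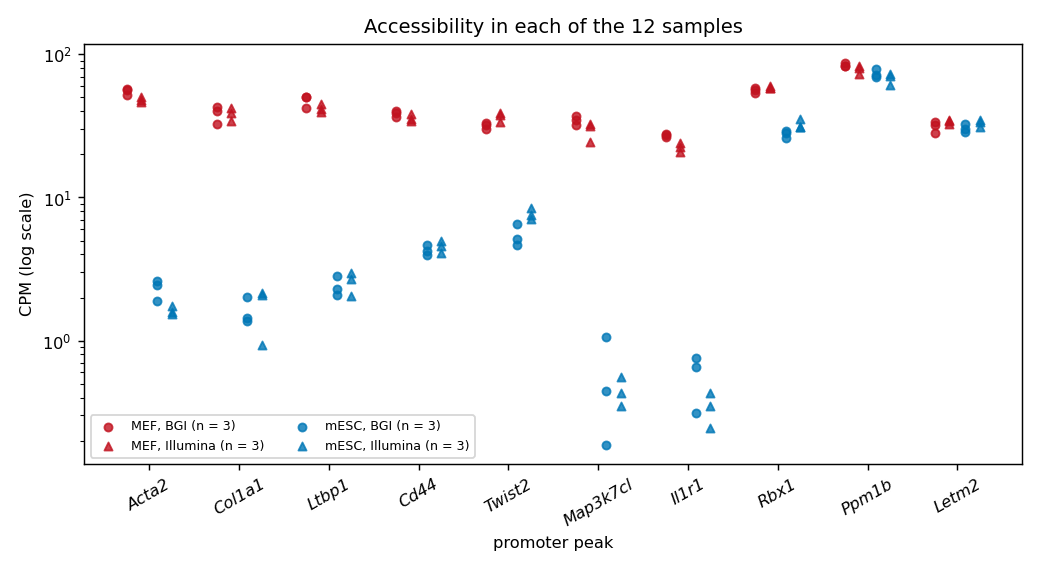
CPM (log scale) of 10 members in each of the 12 samples, with MEFs in red and mESCs in blue, circles for BGI and triangles for Illumina (3 libraries each). The groups stand apart in Acta2, Col1a1, Ltbp1, Cd44, Twist2, Map3k7cl, Il1r1 and Rbx1, stand close together in Ppm1b and mix in Letm2.

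The largest fitted differences on BGI columns belonged to members almost without reads in mESCs, and for several of them the same libraries gave smaller values on Illumina. Spink13 had 915 reads in the 3 MEF samples on BGI and 2 in the 3 mESC samples, a ratio of CPM of 361 with an exact 95% interval of 99.8 to 2989. On Illumina it had 901 and 9 reads, a ratio of 78.7 with an interval of 41.3 to 173. The intervals cover counting error only, and with so few reads the fitted log2 value depends on the prior count of the fit.

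4933402D24Rik had 506 and 3 reads on BGI (ratio 133, interval 45.3 to 648) and 479 and 10 on Illumina (ratio 37.7, interval 20.3 to 79.0). Plce1, a phospholipase C, had 728 and 8 reads on BGI (ratio 71.9, interval 36.3 to 167) and 652 and 14 on Illumina (ratio 36.6, interval 21.7 to 67.3). 4933405O20Rik went the other way, with 409 and 4 reads on BGI (ratio 80.8, interval 31.3 to 298) and 378 and 2 on Illumina (ratio 149, interval 40.8 to 1231). Map3k7cl had 2150 and 28 reads on BGI, a ratio of 60.7 with an interval of 41.9 to 91.5, and 1873 and 22 on Illumina, a ratio of 66.9 with an interval of 44.1 to 107. By fitted difference Spink13, 4933402D24Rik, 4933405O20Rik, Plce1 and Map3k7cl stood at ranks 1 to 5 among the members on BGI and at ranks 8, 34, 1, 35 and 10 on Illumina. None of these 5 members had a MACS2 summit in any mESC sample.

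At the other end stood members whose accessibility was alike in both cell types or higher in mESCs. Ppm1b, a protein phosphatase, had the highest MEF value of all members, 82.7, 86.9 and 82.9 CPM on BGI and 83.2, 80.5 and 72.5 on Illumina, and also the highest mESC value, 71.6, 79.5 and 69.8 on BGI and 71.0, 73.4 and 60.8 on Illumina. The MEF and mESC samples overlapped on Illumina. The member ended 54 bp from a peak of an mESC list.
Letm2 had 28.4, 31.9 and 33.8 CPM in MEFs on BGI and 30.1, 28.8 and 32.8 in mESCs, and it adjoined an mESC-listed peak with no gap. The groups were mixed. Atoh1, Amotl2 and Madd had the lowest fitted differences, −0.92 ± 0.17, −0.83 ± 0.17 and −0.70 ± 0.15 (SE, n = 3 against 3), which is towards mESCs. Atoh1, a neural transcription factor, had 7.27 CPM in MEFs and 14.7 in mESCs and lay 37 bp from an mESC-listed peak, and the gap was 12 bp for this member of Amotl2 and 260 bp for that of Madd.

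Just outside the rule were 1129 promoter peaks on both MEF lists and exactly 1 mESC list. Those of them with the lowest mESC signal were in Lpp (7.35 CPM in MEFs and 1.26 in mESCs), Adgra1 (6.10 and 1.79) and another promoter peak of Amotl2 (9.02 and 2.21). Among the members, those with the highest mESC signal were Ppm1b (71.0 CPM), Polr2a (32.4) and Letm2 (31.9). The rule used overlap with the lists and set no limit on signal, and these members had more mESC signal than Lpp, Adgra1 and that Amotl2 peak.

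How far a member lay from chromatin listed as open in mESCs went together with its difference. The gap from the member to the nearest peak of an mESC list, whatever gene it belonged to, was at most 100 bp in 244 members (12.9%), above that and up to 500 bp in 629 (33.2%), up to 2000 bp in 370 (19.6%), up to 10000 bp in 248 (13.1%) and more than 10000 bp in 401 (21.2%). Over these 5 classes the median log2 difference of MEF over mESC was 0.88, 1.10, 1.59, 2.25 and 2.63. The median MEF signal hardly moved, between 9.39 and 11 CPM, while the median mESC signal was 6.47, 4.73, 3.42, 2.61 and 1.98 CPM. The share of members whose MEF and mESC samples overlapped was 34.4% in the nearest class and 9.48% in the farthest. The gap was measured to the mESC lists that also chose the members, so the trend is a description. The share of members with an observed to expected CpG ratio under 0.4 changed over the same classes, being 28.7%, 43.4%, 61.9%, 71.4% and 67.3%.

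**Figure D3:**
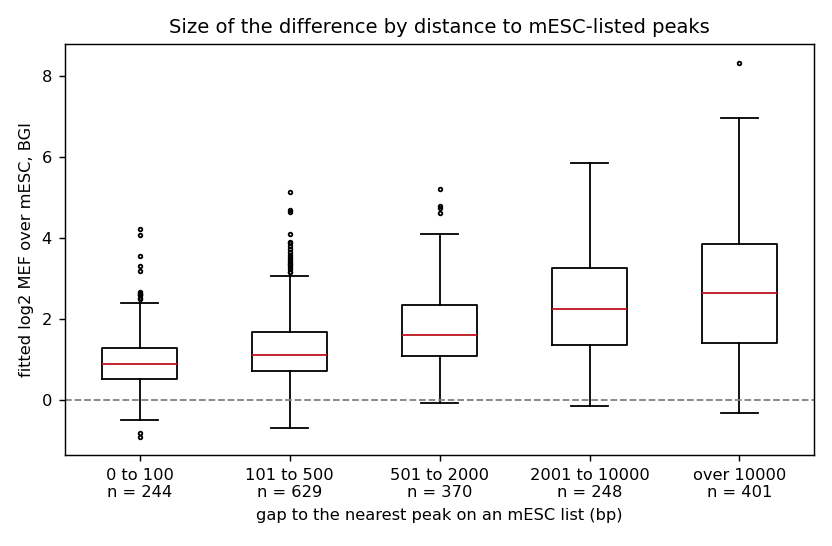
Fitted log2 difference of MEF over mESC on BGI (y axis) for the 1892 members in 5 classes of the gap to the nearest peak of an mESC list (x axis). The mESC lists that set the gap also chose the members. Boxes give the quartiles and the median (red), whiskers reach 1.5 interquartile ranges and points are members beyond them, and the median goes from 0.88 in the nearest class to 2.63 in the farthest.

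Members far from any mESC-listed peak could also have many mESC reads. Of the 649 members more than 2 kb from any mESC-listed peak, 62 had a MACS2 summit with a −log10 p of at least 10 in all 6 mESC samples. Runx1t1, a transcriptional corepressor, was 6957 bp from the nearest mESC-listed peak and had 16.0, 16.2 and 15.8 CPM in MEFs on BGI and 16.1, 18 and 15.0 in mESCs. These groups were mixed.
Polr2a, the largest subunit of RNA polymerase II, had a pair of members and no promoter peak on an mESC list. The one nearer to the TSS had 51.7, 43.0 and 60.4 CPM in MEFs on BGI and 30.9, 33.3 and 29.3 in mESCs, with a highest mESC −log10 p of 247. It lay 1062 bp from the nearest mESC-listed peak and so was not among the members more than 2 kb away. Why peaks of this height were on neither mESC list was not tested.

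By the other promoters of their genes, the members fell into 3 kinds. For 1125 members (59.5%) another promoter peak of the same gene was on an mESC list within 2 kb, at a median distance of 781 bp between peak starts. For 311 members (16.4%, 277 genes) such a peak lay beyond 2 kb, at a median of 19870 bp. For 456 members (24.1%, 405 genes) no other promoter peak of the gene was on an mESC list. The share of members whose gene had another promoter peak on an mESC list was 75.9%, against 55.3% of the promoter peaks on all 4 lists and 71.8% of those on the mESC lists only.

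The 311 members with a distant alternative had the largest differences, with a median log2 value of 2.62 (interquartile range 1.79 to 3.61) and a median mESC signal of 1.86 CPM. Whether the mESC-listed promoter peak was also on a MEF list was not part of this division. Besides Ltbp1, this kind held Mrtfb, a cofactor of serum response factor, with 53.9 CPM in MEFs and 5.71 in mESCs at an intronic promoter and the mESC-listed promoter peak 101654 bp away. Tcf4, an E-protein, had 16.9 and 3.13 CPM with the alternative 71881 bp away, and Itgb5, an integrin beta chain, 28.0 and 4.06 CPM with the alternative 61656 bp away. Il1r1, Plce1, Vamp5 and Synpo belonged here too. The 456 members without such an alternative had a median log2 difference of 1.99 (1.10 to 3.29) and included Acta2, Cd44, Ddr2, Ccl2, Cavin2, Adamts12, Serpinf1 and Map3k7cl. The 1125 members close to an mESC-listed promoter peak had a median of 1.11 (0.71 to 1.74), and 485 of them (43.1%) had a value under 1.

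Most genes had a single member. There were 1501 such genes, 164 with 2 members, 13 with 3 and 6 with 4.

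The members lay away from the TSS more often than promoters open in both cell types. The peak spanned the nearest TSS in 33.4% of members, against 73.6% of promoter peaks on all 4 lists and 40.4% of those on the mESC lists only. The peak centre was downstream of the TSS in 53.8% of members and 37.6% of promoter peaks on all 4 lists. By annotation, 964 members (51.0%) were centred in an intron of their gene, 499 (26.4%) outside the gene body, 255 (13.5%) in a UTR exon, 100 (5.29%) in a coding exon and 74 (3.91%) in another exon. Of the promoter peaks on all 4 lists, 21.4% were centred in an intron and 44.4% outside the gene body. Among members without an alternative on an mESC list, 65.1% spanned the TSS, and among those within 2 kb of one 16.6% did.

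The sequence under the members was poorer in CpG than that of promoters open in both cell types. Median GC content was 52.4% in members (50.4 to 53.6% over the 3 kinds), 62.8% in promoter peaks on all 4 lists and 55.2% in those on the mESC lists only. The ratio of observed to expected CpG had medians of 0.374, 0.760 and 0.384 in the same order, and it was under 0.4 in 53.9%, 8.81% and 52.6%. In this respect the members were close to promoter peaks found only in mESCs. Members with a CpG ratio under 0.4 had a median log2 difference of 2.05, those from 0.4 to 0.6 one of 1.23 and those of at least 0.6 one of 0.83. One member, on an unplaced scaffold, had no sequence.

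AP-1 (the Fos and Jun factors) is known to bind widely in fibroblast chromatin, TEAD factors act with YAP and RUNX factors act in mesenchymal cells. The AP-1 letters were found in 22.6% of the members, 8% of promoter peaks on all 4 lists and 13.7% of those on the mESC lists only, all peaks being of the same width. These shares describe regions and were not tested. They were in 46.6% of the 20596 peaks on the MEF lists only outside promoters and in 25.2% of all 91354 peaks, so that the members stood between shared promoters and distal MEF peaks. TEAD letters were in 10.7% of members, 4.50% of shared promoters and 6.22% of those on the mESC lists only. RUNX letters were in 10.1%, 5.05% and 8.82% in the same order, and GC boxes were in 32.6%, 77.1% and 42.8%. Over all 91354 peaks the shares were 11.3% for TEAD, 10.9% for RUNX and 30.8% for the GC box. The CCAAT box was in 46.8% of all peaks, TATAAA on either strand in 18% and CArG in 2.54%, and the shares of members were 41.0% for CCAAT, 16.3% for TATAAA and 2.91% for CArG. In the bases from 40 to 20 before the nearest TSS, TATAAA was found in 1.69% of members and 0.917% of shared promoters.

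Base composition moved with these shares. Among peaks with a CpG ratio under 0.4, AP-1 letters were in 32.1% of 1019 members, 22.6% of 1153 promoter peaks on all 4 lists and 18.8% of 1419 on the mESC lists only. At a ratio of at least 0.6 the shares were 6.71%, 5.68% and 5.66%. These are matches of letters, and the part of base composition in the remaining differences was not tested. AP-1 letters were in 32.8% of members with a distant alternative promoter, 23.7% of those without an alternative and 19.3% of those with one nearby.

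Distal MEF peaks near the members were counted next. Their median number within 50 kb of the TSS was 1 for members and 1 for promoter peaks on all 4 lists. At least 1 peak on the MEF lists only and outside promoters lay within this distance in 68.0% of members, against 56.0% of promoter peaks on all 4 lists and 49.8% of those on the mESC lists only. For distal peaks on the mESC lists only the shares were 67.5%, 76.1% and 83.5%. Col1a1 had 19 distal MEF peaks within it and Col5a1 had 17, whereas Ltbp1, Vamp5, Rbx1 and Ppm1b had 0.

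The genes of the members were next read by role, over 19 gene lists. The background is that 7.67% of the 21943 protein-coding genes had at least 1 member. Only a gene with a promoter peak on a MEF list can have a member. Such a peak was present in 13874 of all genes, but in 58 of 60 matrix genes and 15 of 15 housekeeping genes. Shares of the lists are therefore not on the same footing as the 7.67%. The lists were drawn up with earlier results of these data known, so their shares are descriptions.

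**Figure D4:**
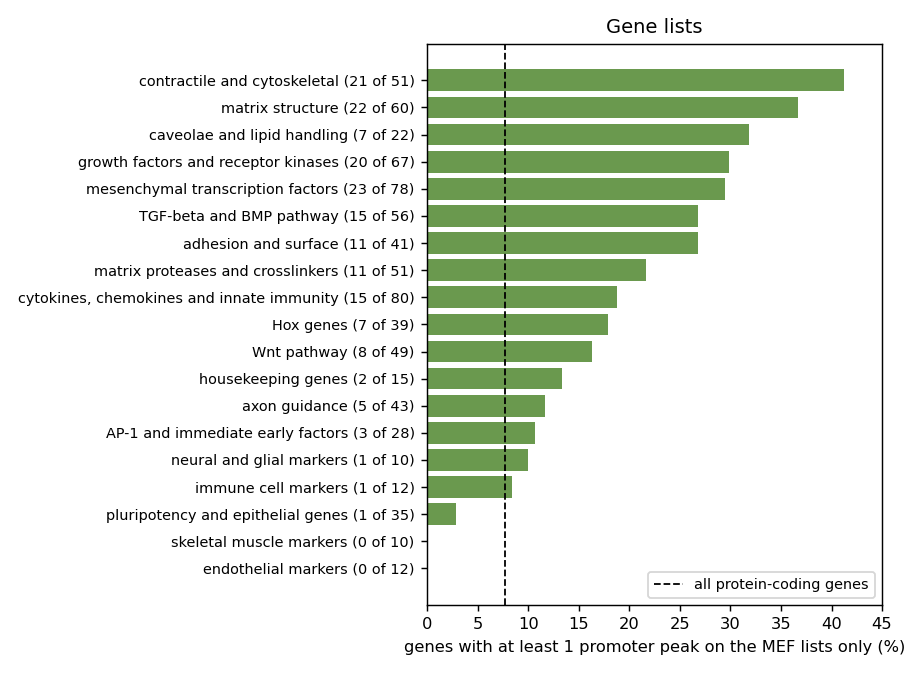
Share of the genes of each list (x axis, %) with at least 1 promoter peak on the MEF lists only, with the number of such genes and of annotated genes in parentheses. The dashed line marks the 7.67% of all protein-coding genes, and contractile and matrix genes have the longest bars. Genes without a promoter peak on a MEF list, which cannot have a member, are counted in the shares and in the line.

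Genes that build the extracellular matrix had members in 22 of 60 cases (36.7%), with a median log2 difference of 2.29. Besides Col1a1 these were fibrillar and associated collagens (Col1a2, Col3a1, Col5a1, Col5a2, Col6a1, Col6a3, Col8a1, Col12a1, Col14a1), the basement membrane chain Col4a5, and elastic fibre and proteoglycan genes such as Eln, Mfap2, Mfap4, Mfap5, Bgn, Dcn and Fmod. Mfap4, a microfibril protein, had 35.0 CPM in MEFs and 4.10 in mESCs, and Col5a1 had 25.7 and 8.82. For 12 of the 22 genes at least 1 member had no alternative on an mESC list. In all, 45 of the 60 genes had some promoter peak on an mESC list and 58 on a MEF list.

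Matrix proteases, their inhibitors and crosslinking enzymes had members in 11 of 51 genes (21.6%). Adamts12, a secreted metalloprotease, had 20.2 CPM in MEFs and 3.09 in mESCs, Adamts14, which trims procollagen, 16.7 and 2.32, and Serpinf1, a secreted serpin, 15.6 and 1.45. Adhesion and surface genes had members in 11 of 41 (26.8%). Cd44, the hyaluronan receptor, led them with 39.2, 40.5 and 36.4 CPM in MEFs on BGI and 4.67, 4.2 and 3.98 in mESCs, and its member is centred 9 bp upstream of the TSS. The groups did not overlap. The third leading gene of this list, Itgb1, encodes the common integrin beta chain and differed less, with 15.8 and 9.37 CPM.

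Contractile and cytoskeletal genes had the highest share of the 19 lists, 21 of 51 (41.2%), with 33 members and a median log2 difference of 2.36. In all 33 the MEF samples lay above the mESC samples, as they did in 83.2% of all members, which the rule chose by the lists of both cell types. Acta2 was followed by Synpo, an actin-binding protein (25.9 CPM in MEFs and 1.83 in mESCs), and S100a4, a calcium-binding protein much used as a fibroblast marker (24.1 and 2.52). The muscle genes Myh11, Myocd, Cald1, Des and Actg2 were also among them.

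Mesenchymal transcription factors had members in 23 of 78 genes (29.5%). Twist2, a bHLH factor, had 32.4, 30.2 and 33.2 CPM in MEFs on BGI and 5.17, 6.50 and 4.66 in mESCs, at a member in its coding exon with a GC content of 67.3%. The groups did not overlap, although all 6 mESC samples had a summit with a −log10 p of at least 10 there. Prrx2, a homeobox factor of limb and craniofacial mesenchyme, had 20.2 and 1.5 CPM. Prrx1, Runx1, Runx2, Snai1, Zeb1, Zeb2 and Meox1 had members too. Of the 78 genes, 71 had some promoter peak on an mESC list.

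AP-1 and other immediate early factors had members in 3 of 28 genes (10.7%, near the 7.67% of all genes), namely Mafk, Ccn1 and Nr4a3, and 26 of the 28 genes had a promoter peak on an mESC list. Mafk, a small Maf protein, had 27.5 CPM in MEFs and 2.82 in mESCs. The genes of the TGF-beta and BMP pathway had members in 15 of 56 (26.8%), with ligands (Tgfb2, Tgfb3, Inhba), receptors (Tgfbr1, Tgfbr2, Acvrl1), binding proteins (Ltbp1, Ltbp3, Fst, Fstl3) and Smads (Smad3, Smad6, Smad9). Tgfb1i1, a focal adhesion protein induced by TGF-beta, had 33.6 and 5.79 CPM, and Tgfb3 24.4 and 4.55.

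Growth factors and receptor kinases had members in 20 of 67 genes (29.9%). Ddr2, a receptor for fibrillar collagen, had 27.1, 23.4 and 33.4 CPM in MEFs on BGI and 1.58, 1.95 and 1.99 in mESCs, with no overlap. Its epithelial relative Ddr1 had 24.9 CPM in MEFs and 11.4 in mESCs at a member 658 bp from an mESC-listed promoter peak of the gene, and Igf2, an imprinted fetal growth factor, had 23.8 and 3.38. The Wnt pathway had members in 8 of 49 genes (16.3%). Wnt2 had 20.6 and 6.44 CPM, and Wnt5a had 3 members. They had 12.3 and 3.72 CPM at a TSS, 10.6 and 4.83 CPM 732 bp downstream of it, and 7.60 and 3.14 CPM at a member centred 114 bp downstream of another TSS.

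Cytokine, chemokine and innate immunity genes had members in 15 of 80 (18.8%), and 9 of these 15 genes had a member with no alternative on an mESC list. Ccl2, a chemokine that draws monocytes, had 21.5, 20.5 and 19.2 CPM in MEFs on BGI and 1.01, 1.06 and 1.18 in mESCs. Its groups did not overlap. Il6ra, the receptor of interleukin 6, was different, with 19.2 CPM in MEFs and 12.3 in mESCs.

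Hox genes, which mark position along the body axis, had members in 7 of 39 (17.9%), with Hoxb9 at 22.9 and 5.68 CPM, Hoxb2 at 15.6 and 3.27 and Hoxc6 at 10.4 and 5.30. Genes of caveolae and lipid handling had members in 7 of 22 (31.8%), led by Cavin2 (25.5 and 2.08 CPM), with Cebpa at 18.7 and 7.63 and Fabp5 at 13.8 and 4.49. Axon guidance genes had members in 5 of 43 (11.6%), with Nrp1 at 18.7 and 6.16 CPM, Unc5c at 12.1 and 7.88 and Flrt2 at 9.61 and 4.76.

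Genes of pluripotency and epithelium had 1 member in 35 (2.86%), Tbx3, with 8.99 CPM in MEFs and 5.28 in mESCs, and 34 of the 35 genes had a promoter peak on an mESC list. Among markers of other cells, Csf1r had 14.4 and 1.93 CPM and Tubb3 15.6 and 3.23. Housekeeping genes had members in 2 of 15 (13.3%). Actb had a member 762 bp upstream of its TSS with 11.4 CPM in MEFs and 5.09 in mESCs, and an mESC-listed promoter peak of Actb lay 771 bp from it.

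MEF libraries differed little for most members. The range of log2 CPM between the 3 MEF libraries, with both platforms averaged, had a median of 0.29 and was under 0.73 in 95% of members. The widest ranges were in Sf1 (1.62), Siglecg (1.54) and Nadk (1.5), and in each of these library 4 was the low one. Siglecg had 17.7 and 21.7 CPM in libraries 1 and 2 on BGI and 7.67 in library 4, and Nadk, an NAD kinase, had 22.8, 20.6 and 7.57. Sf1, a splicing factor, had 8.68, 6.36 and 2.64. Over all members, the deviation of a library from the mean of its cell type had medians of −0.02, −0.01 and 0.05 (log2) in MEF libraries 1, 2 and 4 and of 0.04, −0.08 and 0.04 in mESC libraries 1, 3 and 5.

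Sequencing platforms were compared within MEFs. The rule required members to be on the MEF lists of both platforms, so that peaks found on 1 platform only were left out beforehand, and the members' platform differences are not independent of that choice. The test was edgeR's quasi-likelihood test with Benjamini-Hochberg adjustment over the 61891 peaks of the MEF table. Every member lay whole within a peak of that table, and for 1861 of the 1892 that peak was wider than the member, with a median width of 519 bp. Of all peaks, 4.06% were called, and of the members 57 (3.01%), all 57 lower on BGI. Of the calls over all peaks, 66 were higher and 2448 lower on BGI. The same libraries were read on both platforms, and with library number as a block 29.2% of all peaks (8604 higher and 9471 lower on BGI) and 486 members (25.7%, 123 higher and 363 lower) were called. All 57 members called without the block were called with it. Without library 1 or without library 2, with no block, 0 members and 0 of all peaks were called (137 and 113 members had an unadjusted p under 0.05, and DESeq2 on all libraries called 147 members). Without library 4, 184 members (9.73%) and 9.91% of all peaks were called. The 147 members of the DESeq2 test without the block were 8.86% of the 1660 for which it gave an adjusted p, against 12.8% of 46292 such peaks, and with the block DESeq2 called 162 members, 10.5% of 1541 against 15% of 42692 peaks. With the block, edgeR called 305 members (16.1%, against 18.1% of all peaks) without library 1, 298 (15.8%, against 17.8%) without library 2 and 496 (26.2%, against 24.6%) without library 4. On the members' own windows, an alternative chosen after seeing the data, 71 members (3.75%) were called without the block, against 3.99% of the 87043 peaks of the BGI peak set that passed the expression filter, and 457 (24.2%, 55 higher and 402 lower on BGI) with it, against 18.4% (4755 higher and 11252 lower).

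Platform differences were small for most members. The median log2 ratio of BGI over Illumina was −0.02 over the members and 0.07 over all peaks tested. Over the members it was −0.09 without library 4, −0.06 on their own windows and −0.10 with the GC offset. It went with base composition, and the median was 0.06 in members under 45% GC, 0.00 from 50 to 55%, −0.19 from 60 to 65% and −0.41 in the 163 members of at least 65%. Across the 1891 members with sequence, GC content and the log2 ratio had a Pearson r of −0.589, given as a description of peaks read in the same libraries. The 57 members called lower on BGI had a median GC content of 69.9% and those not called 52.2%. With an offset for GC content, no member was called without the block (229 had an unadjusted p under 0.05), and with the block 334 were (17.7%), 16 higher and 318 lower on BGI. Of all peaks, 0 were called with the offset alone and 10.6% with the offset and the block, 2339 higher and 4212 lower.

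**Figure D5:**
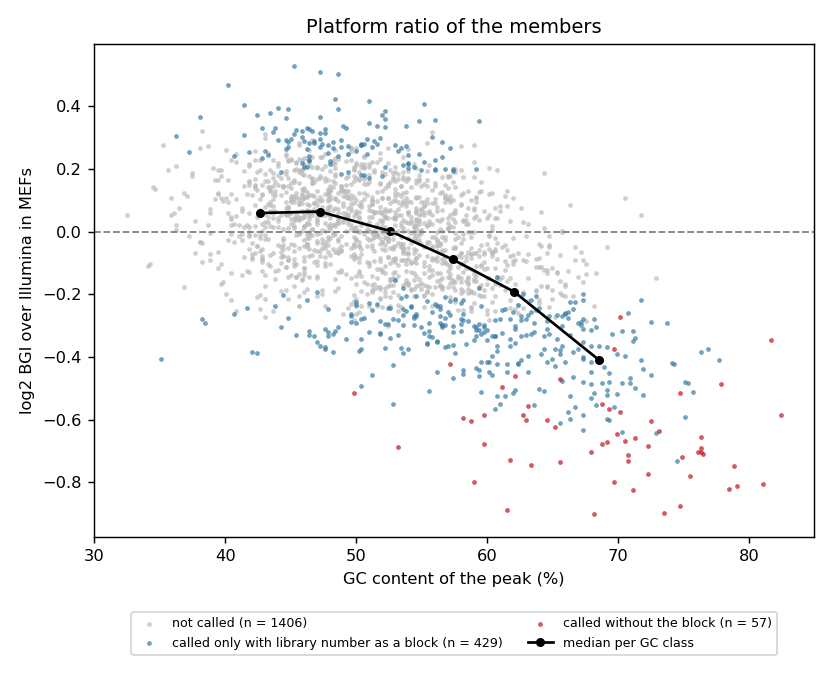
GC content of each member (x axis, %) and the fitted log2 ratio of BGI over Illumina in MEFs of the tested peak that holds it (y axis), coloured by the edgeR call without and with library number as a block, with the median of each GC class in black. The median goes from 0.06 under 45% GC to −0.41 at 65% and above, and the 57 members called without the block lie among the lowest ratios.

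The members with the lowest p in this comparison were Nudt4, Cdyl and Runx1t1. The CPM given for them are those of the MEF-table peak that was tested. Nudt4, a diphosphoinositol phosphatase, lay in a tested peak of 1078 bp that also covered a neighbouring peak, with 26.2, 27.4 and 32.1 CPM on BGI and 44.2, 42.8 and 44.8 on Illumina in MEF libraries 1, 2 and 4. Its log2 ratio was −0.65 ± 0.09 (SE, n = 3 against 3, edgeR adjusted p = 0.00648), and −0.91 ± 0.13 on its own window (edgeR adjusted p = 0.005). Cdyl, a chromodomain protein, had 14.2, 14.2 and 16.0 CPM against 23.7, 22.9 and 25.3, a ratio of −0.72 ± 0.11 (edgeR adjusted p = 0.00894). In both, every BGI value was below every Illumina value.
Runx1t1 had 16.4, 16.7 and 16.3 CPM on BGI and 24.1, 26.3 and 25.2 on Illumina, a ratio of −0.64 ± 0.09 (edgeR adjusted p = 0.00908). In the mESC samples its own window had 16.1, 18 and 15.0 CPM on BGI and 21.4, 25.8 and 24.3 on Illumina. GC content was 69.9%, 74.9% and 73.1% in these 3 members. Without the block, edgeR on all libraries called 0 members higher on BGI, edgeR without library 4 called 4 and DESeq2 on all libraries called 2. Mthfd1 was called in both of the latter (adjusted p = 0.0476 by edgeR without library 4 and 0.0159 by DESeq2). With the block, those of the lowest p were Mthfd1, a folate enzyme (log2 ratio 0.39 ± 0.08, adjusted p = 3.77e-05), Ankrd1, a YAP target (0.34 ± 0.07, adjusted p = 8.47e-05), and Tbc1d7, a subunit of the TSC complex (0.51 ± 0.10, adjusted p = 9.35e-05, all edgeR). In each of these, BGI was higher than Illumina in 3 of 3 MEF libraries. In mESC libraries this held in 3 of 3 for Mthfd1, but Ankrd1 was lower on BGI in libraries 3 and 5 (log2 ratios −0.12 and −0.13) and Tbc1d7 in library 5 (−0.32). For these members, the edgeR adjusted p-values without the block were 0.103, 0.523 and 0.215 in the order named. With the GC offset and no block the log2 ratios were nearer 0, at −0.29 for Nudt4, −0.37 for Cdyl, −0.21 for Runx1t1, 0.23 for Mthfd1, 0.22 for Ankrd1 and 0.35 for Tbc1d7, and none of the 6 was called (the lowest edgeR adjusted p was 0.302, for Nudt4).

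The fitted log2 difference of MEF over mESC on BGI columns and that on Illumina columns differed by a median of 0.14 in absolute value over the members. The rule used the lists of both platforms and the same libraries were read on both, so this is a description only. Acta2 had a pair of members whose ratios had opposite signs. At the member centred 181 bp downstream of the TSS, BGI was higher than Illumina in all 3 MEF libraries, with a log2 ratio of 0.18 ± 0.06 (edgeR adjusted p = 0.177 without the block and 0.00628 with it). The other one, centred upstream of the TSS, had a ratio of −0.32 (edgeR adjusted p = 0.403 without the block and 0.00598 with it). Twist2, of high GC content, was lower on BGI, with −0.22 ± 0.08 (edgeR adjusted p = 0.226 without the block and 0.00241 with it).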

How the data were processed

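Omni-ATAC-seq was collected from 6 libraries, each sequenced on 2 platforms. Per the study's methods, the authors trimmed reads, aligned them to GRCm38 (mm10) with Bowtie2, removed duplicates, poorly mapped and mitochondrial reads, down-sampled MEF samples to 60 M and mESC samples to 45 M reads, and called peaks per sample with MACS2 without a local background. The deposited calls give a −log10 p for each summit. The lists of reproducible peaks, as deposited, give positions only, of fixed-width windows left after overlapping windows were removed in favour of the stronger one. The deposited tables hold raw counts of reads per peak, without normalization. Columns without a platform name were taken as Illumina, from peak names in the deposited calls. The versions of the authors' other tools were not used here.

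The peaks of the MEF table, on which platforms were compared, are of varying width and can merge neighbouring windows. TSSs were those of protein-coding transcripts of protein-coding genes (GENCODE M21). Distance was measured from the peak edge. CPM used total reads in peaks, so low-depth samples limit values near 0, and intervals cover counting error only. Fits used edgeR 4.0.16 in R 4.3.3 (quasi-likelihood, TMM, default expression filter, two-sided, adjusted p under 0.05), with DESeq2 1.42.0 as an alternative, and were tested on simulated data. Motifs and GC content came from the reference sequence with pysam 0.24.0. The main fit had no block, but the libraries pair the samples because the same library was read on both platforms. After removal of platform means, same-numbered MEF samples correlated over members at r = 0.573 to 0.787 and differently numbered ones at −0.597 to 0.211. Whether biological replicates came from separate embryos or cultures is not given in the sources used here.

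Named members were: up to 3 of each gene list with the highest MEF CPM, the 5 highest in MEFs and the 3 lowest p in each platform direction. The 3 members with the highest mESC CPM were also named, with the 3 of lowest mESC CPM among promoter peaks on both MEF lists and exactly 1 mESC list. Further ones were the 5 largest and 3 smallest MEF to mESC differences, and the 3 widest ranges between MEF libraries. Other genes listed without values are members of a list. Leaving out libraries, other normalizations, filters, blocks, GC offsets and rules for members were tried. The members and gene lists were chosen with earlier results of these data known. The tables of mESC peaks of both platforms and the merged lists were not used. The sequence of 1 further member that the rule named is not reported here.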

Additional observations from a re-analysis of the deposited data

How the results depend on the processing

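The count of members, 1892, stayed within 1.5 times under 6 other rules (1328 to 2416) and was 698 without the members that had a strong MACS2 call (−log10 p of 10 or more) in any mESC sample. The median log2 fold of mESC over MEF, −1.46, was −1.32 when the down-sampled read totals served as library sizes, and −1.37 to −1.51 when each library was left out. In alternatives chosen after seeing the data it was −1.73 in members whose MEF samples all lay above their mESC samples and −2.51 in members over 2 kb from any mESC-listed peak, which follows from the narrower sets. The median platform ratio in MEFs, −0.02, was −0.0872 to −0.0279 when each library was left out, lowest without library 4, and −0.000638 with library sizes fixed at the total reads in peaks. With the GC offset, chosen for this median after seeing the data, it was −0.103 without and −0.103 with the block (all peaks −0.01 in both). For calls between platforms, 57 members became 0 with the GC offset and no block, 486 with library number as a block, 334 with the block and the GC offset, 147 with DESeq2 and 162 with DESeq2 and the block. Leaving out each library gave 0 to 184 members, and 298 to 496 with the block (305 without library 1). Of the 6 members named for platform, 3 were called, 0 with the GC offset and no block, 6 with the block, 6 with the block and GC offset, and 6 with DESeq2 and the block. Leaving out each library gave 0 to 4, and 6 each time with the block. On the members' own windows, chosen after seeing the data, 71 members were called, 457 with the block, 6 of the 6 named ones with the block, and the median ratio was −0.0636 without and −0.0637 with the block. None of the 6 changed direction under any alternative run. The cause of these changes was not tested, beyond the fewer samples left without a library. Members whose gene had another promoter peak on an mESC list numbered 1393 to 1436. Depth limits mESC values near 0, where a member rests on a few reads.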
